A study of Mus musculus with 4 samples.

Results

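Broad regions of open chromatin that every library of the study listed were the subject of the analysis. Overlapping peaks of the 4 ATAC-seq libraries were merged into 52714 regions on 21 chromosomes. A region was kept when it was autosomal, at least 1700 bp wide, listed by all 4 libraries and had under 50% of its bases in soft-masked sequence, the lower-case bases that mark annotated repeats. A first width limit of 2000 bp left 165 regions, fewer than the 200 asked for, so the lower limit was used, and it gave 618 broad regions. They were chosen by their measured width and by the number of libraries that listed them, so neither value is a finding. For comparison, 10476 narrower autosomal regions were listed by all 4 libraries with the same limit on soft-masked bases, and 432 regions were as broad but were listed by 1 to 3 libraries.

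ATAC-seq uses a transposase that inserts adapters into open chromatin, and a peak is an interval where the inserted fragments pile up. In mammalian cells many wide open intervals are promoters with a CpG island, a stretch of GC-rich DNA that has kept the CpG dinucleotide, which methylation and deamination have depleted from most of the genome. Such promoters are typical of housekeeping genes and, in embryonic stem cells (ESCs), also of developmental genes held silent by Polycomb complexes.

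The cells were E14 mouse ESCs in serum and LIF that had received a pLKO lentivirus, were selected in puromycin for 2 days and were collected 2 days later. The shGFP group (1 library) and the shLuc group (3 libraries) carried hairpins against GFP and luciferase, which are not mouse genes, so all 4 libraries are non-targeting controls. The labels do not say whether the 3 shLuc libraries came from separate cultures. The peak lists give positions with no height or score, so width is the only measured quantity and the depth is unknown. With 1 library against 3, the smallest p of an exact permutation test is 0.25, and no test between hairpins was made. Of 10 marker genes of ESCs, such as Pou5f1 and Nanog, 4 (40.0%) had a region of any width within 1 kb of a start site and 1 (10.0%) had a region in all 4 libraries. Of 6 marker genes of other tissues, 3 (50.0%) and 0 did. Of all 20807 coding genes, 13728 had a region of any width and 9093 (43.7%) had one in all 4 libraries, so the ESC markers lay below both and the peak lists do not mark these cells as ESCs.

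Sequences at the centres of a few broad regions illustrate CpG-rich members of the set. The central 200 bases of 5 regions are given below with every CpG in capitals: 4 promoters of genes that encode regulators of transcription or chromatin, and a region inside an intron of a noncoding gene. All coordinates are on mm10 and count from 1.
Arid4a promoter, chr12:71015984-71016183, plus strand: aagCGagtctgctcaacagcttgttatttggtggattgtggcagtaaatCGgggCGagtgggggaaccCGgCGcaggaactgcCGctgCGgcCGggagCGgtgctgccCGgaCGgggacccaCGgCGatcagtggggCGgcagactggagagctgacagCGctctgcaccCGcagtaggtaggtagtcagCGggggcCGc
Kmt2c promoter, chr5:25498857-25499056, plus strand: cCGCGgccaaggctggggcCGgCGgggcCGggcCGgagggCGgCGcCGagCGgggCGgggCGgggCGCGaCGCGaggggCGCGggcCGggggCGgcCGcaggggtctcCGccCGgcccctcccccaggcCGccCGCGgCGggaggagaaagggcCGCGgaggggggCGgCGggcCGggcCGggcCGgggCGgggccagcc
Ezh2 promoter, chr6:47594913-47595112, plus strand: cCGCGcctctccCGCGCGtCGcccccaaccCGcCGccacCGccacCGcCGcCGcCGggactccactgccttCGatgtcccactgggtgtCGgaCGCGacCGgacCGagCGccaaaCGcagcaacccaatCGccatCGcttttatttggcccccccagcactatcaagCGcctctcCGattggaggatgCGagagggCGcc
Nkx2-4 promoter, chr2:147084539-147084738, plus strand: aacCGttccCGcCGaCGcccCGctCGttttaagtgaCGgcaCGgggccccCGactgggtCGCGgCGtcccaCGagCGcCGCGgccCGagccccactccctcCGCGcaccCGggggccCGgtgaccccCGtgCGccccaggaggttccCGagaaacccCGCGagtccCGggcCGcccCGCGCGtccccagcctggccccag
intron of Lncppara, chr15:85670858-85671057, plus strand: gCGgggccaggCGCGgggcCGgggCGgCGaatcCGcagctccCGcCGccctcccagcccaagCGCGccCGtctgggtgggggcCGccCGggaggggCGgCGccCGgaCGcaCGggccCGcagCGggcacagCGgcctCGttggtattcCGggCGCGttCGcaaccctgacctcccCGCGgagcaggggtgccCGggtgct
The 200 bases held 18 CpG at Arid4a, 35 at Kmt2c, 27 at Ezh2, 31 at Nkx2-4 and 30 in the Lncppara intron. Over the broad regions, the 100 bp bins on either side of the centre held 10.22 and 10.42 CpG per 100 bases. Arid4a lay below this density and the other 4 above it, so the 5 are not typical. The central 200 bases of the Rreb1 region, not printed, held 16 CpG. All 5 lie in regions that are at least 93.1% CpG island.

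Most broad regions were spanned by a single wide peak of at least 1 library and were not a chain of joined peaks. In 584 of the 618 (94.5%) each library listed exactly 1 peak, and in 34 (5.50%) at least 1 library listed several. No library had more than 2 peaks in a region, and the largest number over the 4 libraries was 7. A single peak of 1 library covered at least 90% of the region in 563 (91.1%) and the whole region in 205 (33.2%), and the lowest share that the widest peak took of its region was 67.8%. The other 55 (8.90%) were joined from peaks that each covered less than 90%. A single peak that met the width limit alone was present in 502 (81.2%), while the other 116 (18.8%) reached the limit only once peaks of different libraries were merged. Of the 502, 246 had such a peak in 1 library only, 127 in 2, 104 in 3 and 25 in all 4.

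The 4 libraries seldom drew the same borders. The left and right edges came from different libraries in 407 regions (65.9%). The rule took the width over the merged peaks of all libraries, which favours regions whose borders differ between libraries. The edge and core values were not taken for narrower regions, so they show no trait particular to broad ones. The core, the bases that all 4 libraries listed, had a median of 965 bp (quartiles 729 and 1255), a median of 50.6% of the region. In 20 regions the core alone reached the width limit, in 25 every library listed a peak at or over it, and in 7 no base was shared by all 4 libraries. Those 7 included the promoters of Qk, which encodes an RNA-binding protein of the STAR family, Slc6a9, a glycine transporter, and Stxbp5, and 2 regions of the Hist2 histone cluster. At Stxbp5 the covered length was 1782 bp in shGFP and 737, 1742 and 241 bp in shLuc replicates 1, 2 and 3.

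**Figure D1:**
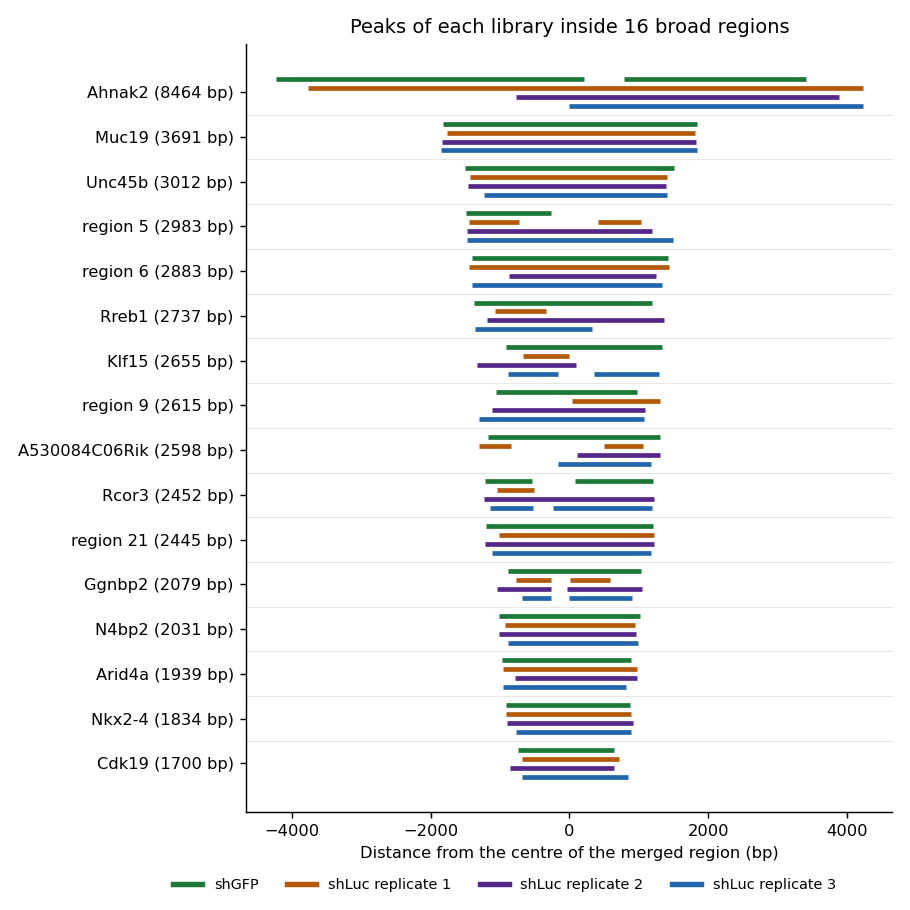
Peaks of the 4 libraries (colours) inside 16 broad regions, drawn as bars from start to end against the distance in bp from the centre of the merged region, with the width of the region beside its name. At Muc19 and Arid4a a single peak spans most of the region in each library, whereas at Ggnbp2 the 3 shLuc libraries each list 2 peaks.

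Regions with several peaks in a library are shown by the promoter of Ggnbp2, which encodes a gametogenetin-binding protein. The merged region was 2079 bp wide and held 7 peaks, 1 in shGFP and 2 in each shLuc library. The covered length was 1922 bp in shGFP and 1066, 1842 and 1334 bp in shLuc replicates 1 to 3, so the single shGFP peak bridged a gap that every shLuc library left. The region shared by Efcab11 and Tdp1, the latter a DNA repair phosphodiesterase, also held 7 peaks. At Rcor3, a member of the CoREST corepressor family, shGFP and shLuc replicate 3 had 2 peaks each, and shLuc replicate 2 had a single peak over the whole 2452 bp.

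At the other end, 11 regions had in every library a peak that covered at least 90%. At the promoter of N4bp2 the region of 2031 bp was covered over 2031 bp in shGFP and over 1871, 1971 and 1875 bp in shLuc replicates 1 to 3. Arid4a, whose product binds the retinoblastoma protein, had a region of 1939 bp covered over 1863, 1924, 1760 and 1773 bp in the same order. At Nkx2-4, a homeobox gene, the region of 1834 bp was covered over 1793, 1812, 1820 and 1655 bp. The 4 values of each promoter lie close together because the 3 were taken from regions that every library covered to at least 90%, and at Nkx2-4 shLuc replicate 3 was the lowest. Bicdl1 and Rdh10, a retinol dehydrogenase, were also in this set.

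The shLuc libraries differed among themselves by about as much as shGFP differed from their mean. The median share of a broad region that a library covered was 93.3% in shGFP, against 55.8%, 90.6% and 86.0% in shLuc replicates 1, 2 and 3 (mean 77.5% ± 18.9, SD, n = 3). The median of the widest peak was 1729.5 bp in shGFP and 1062.5, 1689.5 and 1610.5 bp in shLuc replicates 1 to 3. A peak at or over the limit was listed in 56.0% of the regions by shGFP and in 6.47%, 47.6% and 37.5% by shLuc replicates 1 to 3 (30.5% ± 21.4). shGFP was thus above the 3 shLuc values in each measure, but by less than 1 SD for the covered share and by 25.5 percentage points against an SD of 21.4 for the last. With the regions chosen anew without shLuc replicate 1, which gave 835 regions, the shLuc means were 88.3% and 43.5%.

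Fewer peaks in a list went with narrower peaks. shLuc replicate 1 listed 17860 peaks, against 41943 in shGFP and 41401 and 31585 in shLuc replicates 2 and 3, and it covered the fewest bases of the 4 in 512 broad regions (82.8%), beside 73.3% of the narrower regions. Whether its width follows from its depth was not tested. shGFP covered more bases than all 3 shLuc libraries in 263 broad regions (42.6%), beside 43.3% of all regions listed by 4 libraries, and fewer than all 3 in 11 (1.78%), beside 4.12%. Several peaks in a region were as rare in shGFP (1.78%) as in the shLuc libraries (2.10%, 1.94% and 1.29%, mean 1.78% ± 0.428).

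**Figure D2:**
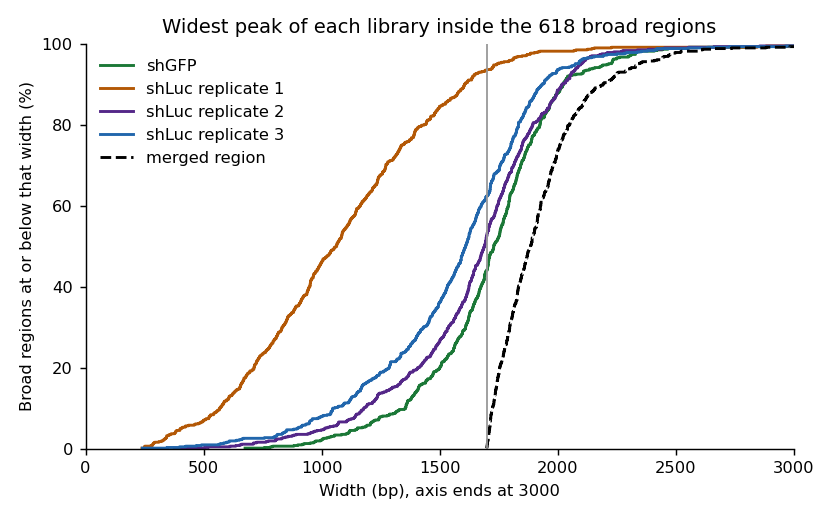
Cumulative share of the 618 broad regions (vertical axis, %) against the width in bp of the widest peak that each library lists there (colours) and of the merged region (dashed). The grey line is the limit of 1700 bp, which the shLuc replicate 1 peaks reach in 6.47% of regions and the shGFP peaks in 56.0%.

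Nearly all broad regions lay at promoters. A transcript start site was within 1 kb in 586 of 618 (94.8%, 95% Wilson interval 92.8 to 96.3), and a start site of a protein-coding gene in 574 (92.9%). The share was 78.3% (77.5 to 79.1) for the narrower regions, 88.7% (85.3 to 91.3) for regions as broad in 1 to 3 libraries and 32.8% for all autosomal regions. These intervals cover counting error over regions only. Because a wide region reaches a start site more easily, the central 500 bp alone were also compared, and the shares were 93.7% and 78.1%. The difference of 16.5 percentage points from the narrower regions was 4.21 against narrower regions of at least 1000 bp, 1.56 with the widest 50% of each list and 36.4 without shLuc replicate 1, and for the 13 regions of at least 2500 bp the sign turned (76.9% at promoters).

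The broad regions lay near 651 protein-coding genes by symbol. A single such gene was present in 499 regions, 2 or more in 75 (12.1%, beside 9.36% of the narrower regions), and 70 (11.3%) had coding start sites on both strands. Another 12 regions had noncoding start sites only. A promoter region held a median of 3.00 start sites and at most 23.

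Measured from the annotated 5′ end of the gene, the open interval reached further downstream than upstream. Further start sites of a gene lie downstream of that end, and a promoter region held a median of 3.00 start sites. How much of the difference follows from this anchor was not tested. In 435 regions with a single coding gene and its annotated 5′ end inside, the region extended a median of 726 bp upstream and 1172 bp downstream, and was longer downstream in 320 (73.6%, 69.2 to 77.5). In single libraries the downstream side was longer in 74.3% for shGFP and in 66.9%, 71.0% and 69.7% for shLuc replicates 1 to 3. Narrower regions had the same tilt at a smaller scale, with medians of 405 bp upstream and 643 bp downstream and a longer downstream side in 75.6% (74.5 to 76.8). At 1000 bp downstream a peak was present in 59.3% of the broad regions in shGFP and 21.4%, 51.5% and 47.4% in shLuc replicates 1 to 3, and at 1000 bp upstream in 16.1%, 4.83%, 15.2% and 14.7%.

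**Figure D3:**
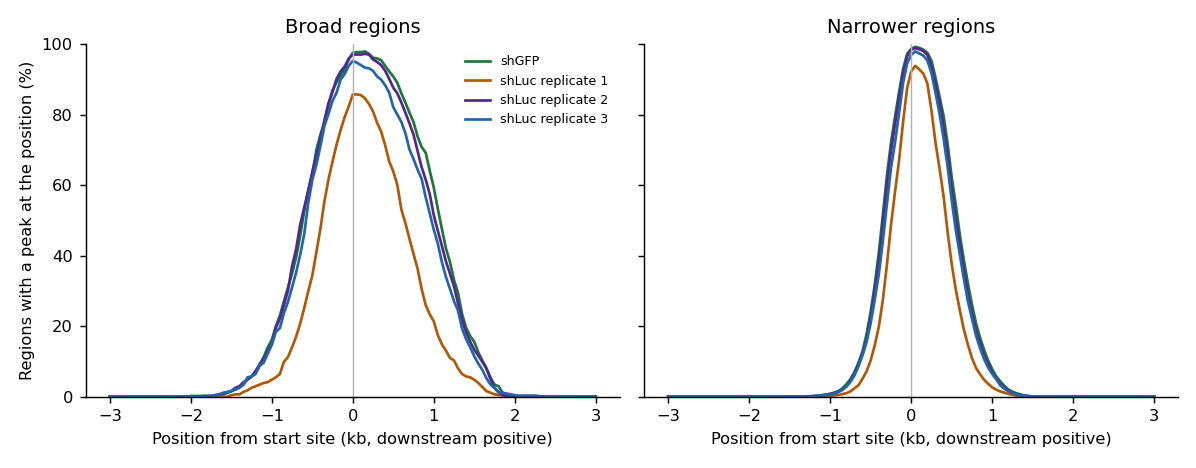
Share of regions (vertical axis, %) in which each library (colours) lists a peak at a given position in kb from the start site, for 435 broad regions (left) and 5585 narrower regions (right), with downstream to the right of 0. The curves lean downstream in both panels, and shLuc replicate 1 lies lowest.

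Broad regions were GC-rich and held a CpG island over most of their length. Their median GC content was 63.9% (95% interval of the median 63.4 to 64.4), against 59.3% for the narrower regions and 52.5% for all autosomal regions. The difference of 4.63 percentage points from the narrower regions was 2.47 against narrower regions of at least 1000 bp, 1.83 with the widest 50% of each list and 8.46 without shLuc replicate 1. The ratio of observed to expected CpG, which corrects the CpG count for the C and G content, had a median of 0.79, 0.69 and 0.34 in the same order. Island bases, those in windows of 200 bases with at least 50% GC and a ratio of at least 0.6, made up a median of 88.2% of a broad region and 77.7% of a narrower one. Narrower regions of at least 1000 bp were closer, with a median of 81.9% island and a ratio of 0.74. Regions as broad in 1 to 3 libraries had a median of 84.4% island. In 582 broad regions (94.2%) at least 50% of the bases were island, against 74.5% of the narrower regions, and 8 (1.29%) had no island base, against 17.0%. The narrower regions of these shares include those under 1000 bp.

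Most island bases near a broad region lay inside it. A broad region held a median of 1671 island bases inside it and a median of 188 within 3 kb of its centre but outside the region. The share of island bases in that window that were inside was 85.5%. In the narrower regions the medians were 776 and 169 bases and the share 73.5%. A wider region takes up more of the fixed window, so a higher share follows in part from the width. GC content was 68.8% at 50 bp from the centre, 52.7% at 950 bp and 42.8% at 2950 bp, and CpG fell from 10.42 to 0.86 per 100 bases over the same distances. The narrower regions started at 63.8% and were down to 44.4% at 950 bp.

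**Figure D4:**
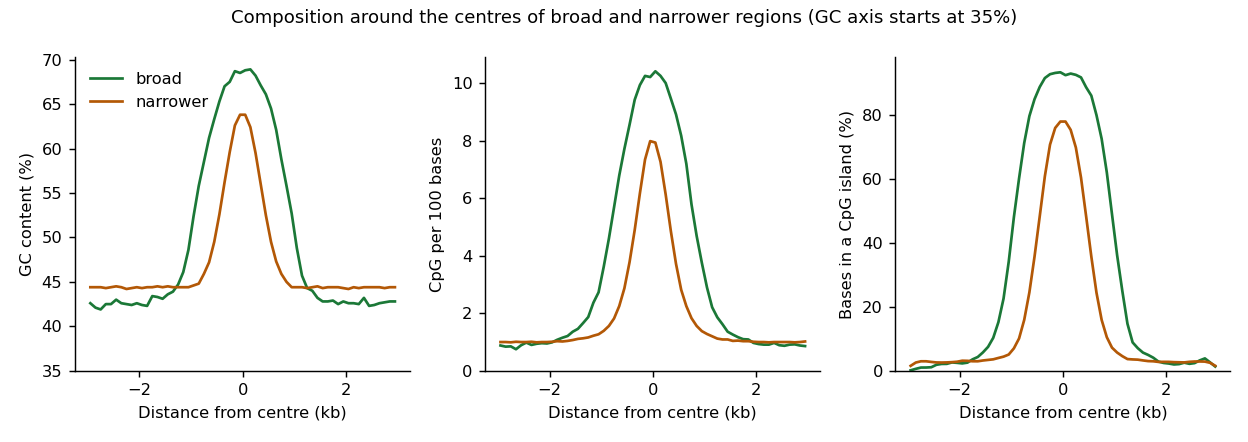
GC content (%, axis from 35), CpG per 100 bases and share of bases in a CpG island (%) against the distance in kb from the centre of the region, for broad (green) and narrower (orange) regions in bins of 100 bp. The broad GC curve lies above the narrower one out to at least 1150 bp (45.7% against 44.4%). The CpG and island curves do so out to at least 1750 bp (1.10 against 1.03 CpG, and 4.09% against 2.97% island). At 2950 bp the broad regions have 42.8% GC and the narrower 44.4%.

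Island bases were counted inside the region, so their number rises with width by construction. Among regions listed by all 4 libraries, the median number of island bases was 555 in regions of 500 to 999 bp, 964 from 1000 to 1499 bp, 1366 from 1500 to 1699 bp, 1517 from 1700 to 1799 bp, 1688 from 1800 to 1999 bp, 1862 from 2000 to 2499 bp and 2116 from 2500 bp up. The median GC content over the same classes was 56.8%, 61.1%, 63.6%, 62.9%, 64.1%, 64.5% and 63.9%, and the promoter share 67.0%, 90.1%, 94.2%, 95.3%, 95.0%, 95.4% and 76.9%. The limit of 1700 bp therefore marks no step. Just inside it, Cdk19, a kinase of the Mediator complex, had 1700 bp (1385 bp covered in shGFP and 1393, 1487 and 1530 bp in shLuc replicates 1 to 3). Just outside it, Pdss2 had 1699 bp (1380 bp in shGFP and 755, 893 and 1699 bp) and Prkd1, protein kinase D, had 1698 bp.

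Short motifs of promoter-binding factors were counted on both strands of the central 300 bp. The GC box GGGCGG, which Sp and Klf factors bind, was in 71.4% of the broad regions (67.7 to 74.8), 67.5% of narrower regions of at least 1000 bp, 58.4% of all narrower regions and 29.0% of all autosomal regions. The ETS motif CCGGAAG went the other way, with 5.18% (3.69 to 7.22) of the broad regions, 13.7% (13.0 to 14.3) of the narrower and 7.58% of all. The NRF1 core GCATGCGC was in 1.13%, 3.12% and 1.30%, and CCAAT was in 20.6%, 30.3% and 31.7%. TATAAA was in 2.10%, 3.44% and 9.01%, the YY1 core AAGATGGC in 3.56%, 3.53% and 6.94%, and the octamer ATGCAAAT in 0.971%, 1.42% and 3.06%. In narrower regions of at least 1000 bp, ETS was in 12.9%, the NRF1 core in 3.31% and CCAAT in 26.0%. TATAAA was in 2.37% of them, the YY1 core in 3.78% and the octamer in 0.863%, all near the broad regions. A start site can lie away from the centre of a wide region, so the windows are not all placed alike relative to it. A match is a description of the letters and not of binding.

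Many genes that regulate chromatin had a broad region. Of 159 such genes in a list by symbol, 31 (19.5%) had a broad region within 1 kb of a start site, beside 3.13% of all 20807 protein-coding genes. Families differ in how many of their genes have an open promoter at all, so the share was also taken among genes with a region of any width in all 4 libraries, and it was 31 of 104 (29.8%) beside 7.17% of all such genes. The 31 include the histone methyltransferases Ezh2, Kmt2c, Ash1l, Nsd2 and Kmt5b, the acetyltransferases Crebbp, Kat6a and Kat6b, the remodelers Chd1, Smarca5 and Srcap, and the Polycomb-associated genes Asxl1, Asxl2, Pcgf5, Rybp and Yaf2. The families were lists chosen by symbol, with no test.

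The widest of these chromatin regions was that of Kmt2c, of 2483 bp, whose central sequence is printed above. It was covered over 2303 bp in shGFP and over 1823, 2278 and 1544 bp in shLuc replicates 1 to 3. Ezh2, the catalytic subunit of a Polycomb complex, had a region of 1805 bp, covered over 1365, 974, 1805 and 1484 bp in the same order. Crebbp had 1734 bp (1734, 1447, 1609 and 1336 bp) and Kat6b 2230 bp (2230, 1322, 1238 and 1057 bp). shLuc replicate 1 was lowest at Ezh2 but not at Kmt2c, Crebbp or Kat6b, where shLuc replicate 3 was.

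Of 208 developmental transcription factors, 37 (17.8%) had a region in all 4 libraries, against 43.7% of all protein-coding genes, and 10 of the 37 had a broad one, beside 7.17% of all coding genes with a region in all 4. Over the 208 this was 4.81%, beside 3.13%. The 10 include the forkhead genes Foxa3 and Foxd1, the homeobox genes Msx3, Nkx2-4 and Pbx3, the basic helix-loop-helix genes Neurog2, Olig1 and Twist1, and Sox17, a factor of the endoderm. Foxa3 shares its region with Sympk, a gene of 3′ end processing. Neurog2, which drives neuronal differentiation, had a region of 2295 bp covered over 1440 bp in shGFP and 732, 1470 and 2091 bp in shLuc replicates 1 to 3. Sox17 had a region of 2023 bp covered over 2021, 461, 1934 and 1944 bp, with shLuc replicate 1 far below the other 3. Island bases made up 99.8% of the Neurog2 region and 99.4% of that of Sox17.

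Kinases and phosphatases, a list added after the gene names were seen, had a broad region at 29 of 216 (13.4%, beside 3.13% of all coding genes), with Gsk3b, Dyrk1a and Stk40 among them. Among the 156 with a region in all 4 libraries the share was 18.6%, beside 7.17%. At Dyrk1a the region of 2251 bp was covered over 2232, 1640, 1652 and 1150 bp. Ubiquitin pathway genes, also added later, had 17 of 244 (6.97%, or 10.7% of those with a region in all 4 libraries), among them the cullins Cul1, Cul3 and Cul4a. Cell cycle genes had 9 of 90 (10.0%, or 12.9% of those with a region in all 4), with Rb1, the retinoblastoma gene, and Wee1, an inhibitory kinase. The list was made by symbol, so it also takes in Cdk13 and Cdk19, the Mediator kinase named above. The region of Cdk13, of 2594 bp, was covered over 2300, 2155, 2385 and 2554 bp, so all 4 libraries listed a peak over the limit. Splicing factors had 10 of 104 (9.62%, or 13.3%), with Hnrnpk, Hnrnpd and Srsf6 among them, and translation factors had 4 of 65 (6.15%, or 8.70%), including Eif4e, the cap-binding protein.

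The remaining lists had 10 or fewer genes with a broad region. Zinc finger genes had 10 of 392 (2.55%), or 3.83% of the 261 with a region in all 4 libraries, beside 3.13% and 7.17% of all coding genes. Among 76 chaperones 1 gene, Hspa4l, had one (1.32%, or 1.89% of the 53 with a region in all 4 libraries). Hspa4l had a region of 1734 bp, covered over 1548, 994, 1734 and 1402 bp. Of 19 pluripotency factors, 3 (15.8%, beside 43.7% of all coding genes) had a region in all 4 libraries and 0 a broad one. The actins and tubulins had 1 of 29 (Tubb2b, 3.45%, or 10.0% of 10 with a region in all 4 libraries), and the small nucleolar RNA host genes 1 of 15 (Snhg18, 6.67%, or 11.1% of 9). The glycolytic enzymes had 0 of 16. A list of knockdown targets, limited to those with ATAC-seq libraries, had 0 of 7, and it leaves out the study's other targets.

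**Figure D5:**
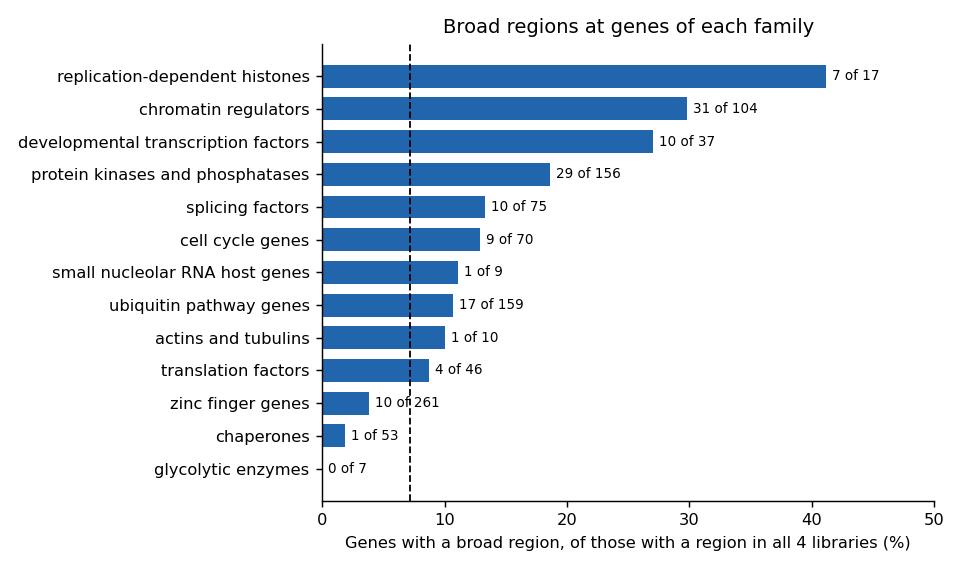
Genes with a broad region as a share (%) of the genes of each family that have a region of any width in all 4 libraries, for the 13 families with at least 7 such genes, with both counts beside each bar. The dashed line is 7.17%, the share over all protein-coding genes. Histones, chromatin regulators and developmental transcription factors lie highest, and zinc finger genes, chaperones and glycolytic enzymes lie below the line. The histone bar counts genes of the Hist2 cluster that share regions, so it rests on fewer regions than genes.

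Genes at broad regions were long. The 652 coding genes by identifier had a median span of 57.0 kb (49.1 to 66.2), against 28.0 kb (27.2 to 28.8) for the 8441 coding genes with a narrower region only, and 32.7% against 14.4% spanned at least 100 kb. The median number of annotated transcripts was 5 in both groups. Leaving out regions made mostly of repeated words gave a median of 58.9 kb over 634 genes.

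Replication-dependent histones had 7 of 67 (10.4%, beside 3.13% of all coding genes). This was 41.2% of the 17 with a region in all 4 libraries, beside 7.17%. All 7 belong to the Hist2 cluster on chromosome 3. They lie in 3 regions. The regions at Hist2h2aa2 with Hist2h3c2 (chr3:96238356-96240482) and at Hist2h2aa1 with Hist2h3c1 (chr3:96245108-96247437) are 4625 bp apart, and 87.5% and 82.4% of their 50-base words are found more than once in the genome, so reads from there can fit more than 1 place and the values of these genes are uncertain. The region shared by Hist2h2ab, Hist2h2ac, Hist2h2be and Bola1 held 11.6% repeated words and was covered over 2004, 328, 2338 and 1141 bp. Broad regions lay on all 19 autosomes, from 16 on chromosome 19 to 47 on chromosome 3. By length they ran from 1.78 per 10 Mb on chromosome 8 to 3.28 on chromosome 11. A stretch of chromosome 14 described below held 14 that were mostly repeated sequence. The median distance from a broad region to the next was 2.47 Mb, and 16 neighbouring pairs were within 100 kb.

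The 4 widest regions were tandem repeats. A tandem repeat was called where a region, shifted against itself by 10 to 600 bases, matched in at least 70% of its bases. This held for 8 of 618 broad regions (1.29%) and 25 of the narrower (0.239%), for 5 of the 10 widest, and for 5 of the 13 regions of at least 2500 bp. The units of 4 of the 8 are shown to let the repetition be seen. Capitals mark bases that differ from the base 1 unit earlier in the genome. Each run holds 4 consecutive units, taken where the units are most alike.
Unc45b promoter, unit of 17 bases, chr11:82933028-82933095, plus strand: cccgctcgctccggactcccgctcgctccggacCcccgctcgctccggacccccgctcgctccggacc
intron of Gm46323, unit of 20 bases, chr12:9426880-9426959, plus strand: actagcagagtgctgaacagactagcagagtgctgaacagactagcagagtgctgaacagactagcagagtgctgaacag
intergenic region, unit of 29 bases, chr2:116559798-116559913, plus strand: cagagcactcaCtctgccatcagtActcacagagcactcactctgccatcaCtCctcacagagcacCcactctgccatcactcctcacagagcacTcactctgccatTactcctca
intron of Stam2, unit of 54 bases, chr2:52697613-52697828, plus strand: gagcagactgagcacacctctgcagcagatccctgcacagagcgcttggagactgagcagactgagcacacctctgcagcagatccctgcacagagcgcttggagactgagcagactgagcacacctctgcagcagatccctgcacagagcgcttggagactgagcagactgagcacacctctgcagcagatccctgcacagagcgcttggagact
The runs of the Gm46323 and Stam2 introns hold no base that differs from the unit before, that of Unc45b holds 1, and that of the intergenic region holds 7.

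Over the 8 tandem regions, the median covered share was 97.5% in shGFP and 92.8%, 94.8% and 90.8% in shLuc replicates 1 to 3, while over the 618 shLuc replicate 1 covered 55.8%. The core listed by all 4 libraries took a median of 86.7% of the region, against 50.6%. Single regions differed more, with 3759 bp between the highest and the lowest covered length at Ahnak2 and 1109 bp at the intergenic region on chromosome 2. In the intron of Stam2, a gene of endosomal sorting, 2445 bp were covered over 2410, 2228, 2445 and 2293 bp, and the units matched at 96.9%. The intron of Gm46323 held 2145 bp with a CpG ratio of 0.02, and the intergenic region on chromosome 2 held 2615 bp with a ratio of 0.00. The Unc45b region, at the start of a gene for a myosin chaperone, had a ratio of 1.28 and 75.8% GC, and the ratio was 0.89 at Gm36079 and 0.52 at Ahnak2.

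The 3 widest had longer units. Ahnak2, which encodes a very large protein built from repeats, had 8464 bp (chr12:112776152-112784615) with a unit of 519 bases and 72.7% identity, covered over 7066 bp in shGFP by 2 peaks and over 7998, 4647 and 4239 bp in the shLuc libraries. Muc19, a gel-forming mucin, had 3691 bp (chr15:91906628-91910318) with a unit of 489 bases and 87.9% identity, covered over 3665, 3572, 3661 and 3690 bp. Gm36079 had 5343 bp with a unit of 339 bases and 74.5% identity. At Muc19 the 4 libraries differed by at most 118 bp. A read from a tandem repeat can be placed in several units, and what this does to the width of the peak was not tested.

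Repeated sequence was also frequent in a stretch of chromosome 14. In 34 broad regions (5.50%, 3.96 to 7.59) at least 50% of the 50-base words occur more than once in the genome, against 2.48% (2.20 to 2.80) of the narrower regions, and 512 (82.8%) hold no repeated word. Of the 34, 6 are tandem repeats described above, and 14 lie on chromosome 14 between 3809166 and 7659514. Some of the 14 are at predicted genes such as Gm3002, Gm3488 and Gm8206, and others had no start site within 1 kb. Reads with equally good positions were placed at random by the authors, so a peak at any copy may stem from another. Without the 34, the promoter share was 96.4% and the median GC content 64.1%.

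The 32 regions away from start sites were a mixed set. By position, 6 overlapped an exon, 6 lay in an intron and 20 were intergenic. Their median GC content was 56.4% and their CpG ratio 0.53, against 64.2% and 0.79 at promoters, 17 of them were at least 50% island and 7 had no island base. Their covered shares were 93.6% in shGFP and 49.0%, 86.2% and 91.3% in shLuc replicates 1 to 3, close to those at promoters (93.3%, 56.1%, 90.8% and 85.9%). Island-rich examples are the region in Lncppara, of 2238 bp and 72.0% GC, covered over 1774, 1590, 2238 and 1616 bp, and exonic regions of Prdm13 and Nhlh2, both genes of neural development, with 70.3% and 62.0% GC. The widest away from start sites in the annotation used, of 2983 bp (chr2:122375469-122378451), and a region in an exon of Eppk1, of 2883 bp with 89.9% repeated words, follow different patterns: the first was covered over 1221, 1342, 2662 and 2965 bp, the second over 2819, 2883, 2114 and 2727 bp.

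Several of these regions carry transfer RNA genes, which RNA polymerase III transcribes and which the GENCODE start sites used here leave out. A tRNA gene of RefSeq started within 1 kb of 9 broad regions (1.46%), against 49 of the narrower (0.468%), and 6 of the 9 are among the 32. The region with the 2983 bp above had 3 tRNA genes, and a pair of regions on chromosome 13, 8564 bp apart, had 2 and 3. A region on chromosome 1 with 4 tRNA genes, chosen after its values were seen, was 1770 bp wide and was covered over 1770 bp in shGFP and 560, 831 and 1505 bp in shLuc replicates 1 to 3. Its central 200 bases are printed with CpG in capitals.
tRNA region, chr1:171102650-171102849, plus strand: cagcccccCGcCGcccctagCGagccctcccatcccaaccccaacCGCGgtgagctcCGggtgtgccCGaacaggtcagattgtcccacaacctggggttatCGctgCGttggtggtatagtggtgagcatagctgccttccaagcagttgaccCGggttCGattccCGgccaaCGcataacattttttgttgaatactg
It held 13 CpG, fewer than the promoters above, at 52.5% GC over the region. In all, 13 of the 32 had a start site of some RefSeq gene within 1 kb.

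Broad regions missing from some libraries were mostly missing from shLuc replicate 1. Of 297 regions as broad that 3 libraries listed, 238 lacked only shLuc replicate 1, 34 lacked only replicate 3, 13 only shGFP and 12 only replicate 2. Together with 92 listed by 2 libraries and 43 by 1, the 432 had a median GC content of 63.5% and a CpG ratio of 0.74, against 63.9% and 0.79 in the 618. The GC box was in 60.4% (55.7 to 64.9) of them, and ETS in 6.02%. A further 195 regions met the width limit in all 4 libraries but were at least 50% soft-masked. Of those, 3.08% were at a start site and 94.9% were made mostly of repeated words, and they were left out by the rule.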

How the data were processed

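ATAC-seq was measured in 4 libraries of E14 ESCs (1 shGFP, 3 shLuc). The authors deposited 1 peak list per library, with the chromosome, start and end of each peak in 3 columns and no score, count or p-value. The submitters' processing notes name bcl2fastq, Bowtie2, MACS2 and the build mm10. Peak calling settings were not given in the sources used here. Per the study's methods, the best alignment was kept, ties were placed at random and concordant pairs were used. Replicates were not pooled.

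Peaks that overlapped by at least 1 bp were merged and counted with Python 3.11.15, numpy 2.4.6, scipy 1.17.1 and numba 0.67.0. Figures were made in matplotlib 3.10.9. All peaks lay within the chromosome lengths of GRCm38, the assembly of mm10. Start sites came from 141767 transcripts of GENCODE, and tRNA genes from RefSeq. A region was at a promoter when a start site was within 1 kb, and otherwise exon, intron or intergenic in that order. A word of 50 bases was repeated when it occurred more than once on both strands of the 21 chromosomes. The functions were tested on simulated data.

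The members, gene lists and motifs were chosen with earlier results of these data known. The design named 2000 bp as the limit and 1700 bp as the alternative. Because the rule lowers the limit when fewer than 200 regions pass, these 2 were exchanged. Named were the 10 widest regions, the 10 widest away from start sites, the 10 with most peaks, the 10 widest spanned by 1 peak in every library, 5 on either side of the limit, and genes of the listed families. Some of these are given only in counts, and some items are not reported here. No test was made, since the rule used the only measured value and shGFP had 1 library.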

Additional observations from a re-analysis of the deposited data

How the results depend on the processing

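Of 184 recomputed values, 128 were labelled the same, 55 moved (29 up, 26 down) and 1 reversed. Shares, medians and differences were the same when they stayed within an interval around the main value. For the shLuc means this interval was 1 SD of the 3 libraries either way. It ran from 9.10% to 52.0% for a peak at the limit and from 58.6% to 96.4% for the covered share. Both were labelled the same at every setting, which is weak evidence of stability. Counts of regions had no interval, and 517, 813 and 835 against 618 were labelled the same. At 2000 bp there were 165 regions, with 64.4% GC and 7.88% mostly repeated. Several peaks were then in 4.24% (shGFP) and 3.84% (shLuc), and shGFP had 45.5% with a peak at the limit and 91.9% covered. At 2500 bp there were 13 regions, 76.9% at promoters, a difference of -2.33 percentage points from the narrower regions and the 1 reversal, with a CpG ratio of 0.74, 30.8% mostly repeated, several peaks in 7.69% for both hairpins, and 46.2% with a shGFP peak at the limit. With any soft-masking, the promoter share was 72.8% (difference 9.13), GC 63.0% (difference 3.65), CpG ratio 0.72, repeated share 26.9%, shGFP peaks at the limit 61.9% and shGFP cover 94.2%. When every library had to cover at least 50%, there were 360 regions, 65.6% GC, CpG ratio 0.82, several peaks in 0.833% (shGFP) and 1.11% (shLuc), shGFP cover 93.9% and a promoter difference of 13.8. With the widest 50% of each list, the CpG ratio was 0.80, several peaks 0.375% and 0.25%, and the promoter and GC differences 1.56 and 1.83. Merging within 500 bp gave 88.0% spanned by 1 peak and several peaks in 3.91% and 2.86%. A span of 80% gave 99.0%, and of the whole region 33.2%. The central 500 bp had 70.0% GC (difference 6.80) and a ratio of 0.87. Start sites within 5 kb gave a promoter difference of 12.4, and coding genes only 18.9. Without mostly repeated regions the promoter share was 96.4%. Against narrower regions of at least 1000 bp, a comparison added after the data were seen, the differences were 4.21 (promoters) and 2.47 (GC).

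Leaving out each shLuc library in turn gave 517 to 835 regions, promoter differences of 15.7 to 36.4 and GC differences of 4.55 to 8.46, both highest without replicate 1. The shGFP values ranged from 0.967% (without replicate 2) to 2.28% (without replicate 1) with several peaks, 58.2% to 69.1% with a peak at the limit and 93.7% to 97.4% covered. The causes were not tested. No paired analysis was possible because shGFP has 1 library and no test was made.

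The depth of the libraries is unknown, peak borders depend on it and on settings not known here, and ties placed at random limit what can be said of repeated regions.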
